A study of Mus musculus with 2 samples.

Results

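The miR-148/miR-152 family consists of 3 mouse microRNA genes, Mir148a, Mir148b and Mir152, whose principal mature products share 1 seed, the bases near the 5′ end through which a microRNA pairs with its target messages. The members were taken by gene symbol from the GENCODE M21 annotation and matched by Ensembl identifier, a rule that uses no measured level. They are 3 of 2202 annotated microRNA genes in the deposited tables. MicroRNA sequencing covered adrenal gland tissue from B6CASTF1/J males at an age of 36 days, an F1 hybrid of C57BL/6J and CAST/EiJ. The labels define 1 group of 2 biological replicates, from separately numbered animals that carry a single donor record, with no treatment and no second genotype. Whether each library came from a single animal or from pooled tissue beyond those numbers is not given in the sources used here. The comparison made here is therefore between both libraries, and its p-values cover counting error in these libraries only.

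A microRNA is cut from a hairpin in its primary transcript, and 1 arm of the hairpin is loaded into an Argonaute protein. It then pairs, through its seed, with sites that lie mostly in 3′ untranslated regions, and it lowers the stability and translation of those messages. The miR-148/miR-152 family is known for targeting the maintenance DNA methyltransferase Dnmt1. Mir148a is also known for targeting the cholesterol exporter Abca1 in liver cells, and for its high level in the acinar cells of the pancreas. No messenger RNA was measured in these libraries.

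The 3 mature 3′-arm microRNAs, from RefSeq (GRCm38.p6), are shown because their shared seed defines the family. Capitals mark the seed, bases 2 to 8 counted from the 5′ end.
miR-148a-3p: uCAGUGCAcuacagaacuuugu
miR-148b-3p: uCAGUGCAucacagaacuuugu
miR-152-3p: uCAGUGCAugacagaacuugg
The first 8 bases were the same in all of them. Counted from 1 at the 5′ end, with the base of the first-named microRNA first, miR-148a-3p and miR-148b-3p differed at 2 of 22 positions, C9U and U10C. Compared over 21 positions, miR-148a-3p and miR-152-3p differed by C9U, U10G and U20G, and miR-148b-3p and miR-152-3p by C10G and U20G. The differences between the members thus lay at the positions just after the seed and near the 3′ end. Of 1738 mature mouse microRNAs in the RefSeq table, which is not complete, 3 held the seed at bases 2 to 8, and these were the members. All 3 members and 968 of the 2202 counted genes had a RefSeq hairpin of the same symbol.

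The hairpins are shown because the deposited counts refer to hairpin genes and not to either arm. Capitals mark the 3′-arm mature microRNA.
Mir148a: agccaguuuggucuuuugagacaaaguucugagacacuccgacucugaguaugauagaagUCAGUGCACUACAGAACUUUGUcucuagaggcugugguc
Mir148b: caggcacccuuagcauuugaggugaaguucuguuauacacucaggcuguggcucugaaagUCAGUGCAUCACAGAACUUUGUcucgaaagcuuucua
Mir152: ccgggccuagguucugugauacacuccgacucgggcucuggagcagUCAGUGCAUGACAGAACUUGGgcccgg
The hairpins of Mir148a and Mir148b, of 99 and 97 bases, were identical at 67.6% of 102 aligned positions. That of Mir152, of 73 bases, was identical to them at 54.5% of 101 and 57.6% of 99 positions. Mir152 also had the higher GC content, 61.6% against 45.5% in Mir148a and 45.4% in Mir148b. The 5′ arms share a seed in Mir148a and Mir148b, whereas that of Mir152 differs.
miR-148a-5p: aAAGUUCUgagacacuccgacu
miR-148b-5p: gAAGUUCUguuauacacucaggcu
miR-152-5p: uAGGUUCUgugauacacuccgacu
In a search of the RefSeq hairpins without gaps, the closest match to each 3′ arm outside its own hairpin was another member, with 2 mismatches in each case. The next hairpins outside the family had 6 mismatches for Mir148a and Mir152 and 7 for Mir148b. Reads that map to several places lie outside the gene counts. How many reads of the members were lost in that way was not tested.

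The 3 genes lie on different chromosomes of mm10, and 2 of them lie in introns of paralogous genes. Mir148a (ENSMUSG00000065505.1) lies on the minus strand at chr6:51269812-51269910, between genes. Mir148b (ENSMUSG00000065560.1) lies on the plus strand at chr15:103285125-103285221, in an intron of all 4 annotated transcripts of Copz1. Mir152 (ENSMUSG00000065515.1) lies on the plus strand at chr11:96850393-96850465, in an intron of 3 of 5 annotated transcripts of Copz2, only 523 bases from the start of that gene. Copz1 and Copz2 encode paralogous zeta subunits of the COPI vesicle coat, and both are transcribed in the direction of their microRNA. The other transcripts of Copz2 do not reach the hairpin.

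The surroundings of the loci share further gene families, some of which are described here. Before the 5′ end of each hairpin lies a gene of the Nfe2 family of transcription factors, at 163 kb (Nfe2l3) from Mir148a, 26.7 kb (Nfe2) from Mir148b and 20.4 kb (Nfe2l1) from Mir152. A gene of the Cbx family of heterochromatin proteins follows on the same side, Cbx3 at 200.4 kb, Cbx5 at 45.3 kb and Cbx1 at 41.8 kb in the same order. Mir148a and Mir148b also share neighbours of the Hnrnpa family, and Mir148a and Mir152 share neighbours of the Skap and Snx families. This is a description of the annotation, and the families were picked out after the neighbours had been listed.

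**Figure D1:**
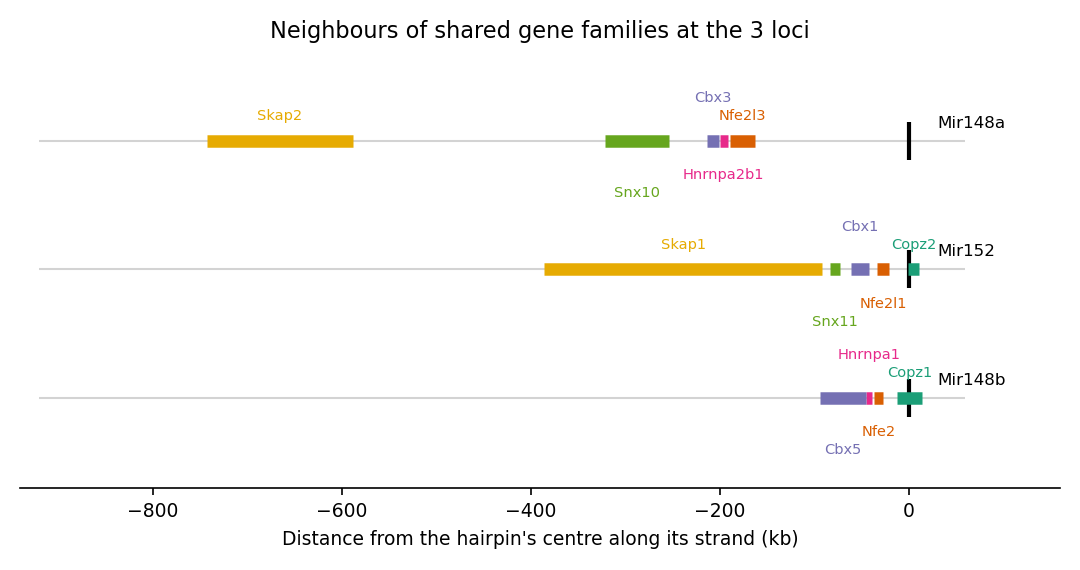
Selected neighbouring genes, of families found at more than 1 of the loci, drawn to scale against the distance in kb from each hairpin's centre along its own strand, with negative values before its 5′ end. Black ticks mark the hairpins, and each colour is 1 gene family; the Nfe2 and Cbx genes lie on the same side of all 3 microRNAs, and the Copz genes span Mir148b and Mir152.

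The libraries differed in depth. Replicate 1 held 4494857 sense counts in microRNA genes, 36.6% of its reads, and replicate 2 held 2078824, 20.1% of its reads. Levels are given as CPM, counts scaled to the sum of those sense counts, so that 1 read was worth 0.222 CPM in replicate 1 and 0.481 CPM in replicate 2. The labelled tissue has no defining microRNA in the lists used here. Mir375, a neuroendocrine microRNA, stood at 44147 and 51780 CPM in replicates 1 and 2, and Mir126a, an endothelial one, at 74830 and 64786 CPM. On the same list as Mir375, the other genes were lower in replicate 2. Mir7b stood at 4326 and 2129 CPM, Mir7-1 at 233 and 165 CPM and Mir7-2 at 96.3 and 83.2 CPM. Markers of other tissues differed between the libraries and are given with the results they touch.

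All 3 members were counted in both libraries, Mir148a and Mir152 at similar levels and Mir148b several-fold lower. Mir148a had 4169 counts in replicate 1 and 1405 in replicate 2, or 928 and 676 CPM. Mir152 had 3504 and 1393 counts, or 780 and 670 CPM. Mir148b had 753 and 279 counts, or 168 and 134 CPM. Each member was higher in replicate 1 on this scale, and the ranges of Mir148a and Mir152 overlapped, whereas Mir148b lay below both in each library. The means were 802 ± 178 CPM for Mir148a, 725 ± 77.4 CPM for Mir152 and 151 ± 23.6 CPM for Mir148b (SD, n = 2). The SD was 22.2%, 10.7% and 15.6% of the mean in that order.

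Exact Clopper-Pearson 95% intervals of the level of Mir148a ran from 899.6 to 956 CPM in replicate 1 and from 641 to 712 CPM in replicate 2. Those of Mir152 ran from 754 to 806 CPM and from 635 to 706 CPM, and those of Mir148b from 156 to 180 CPM and from 119 to 151 CPM. Such intervals treat each read as an independent draw, so they cover counting error only. PCR copies cannot be recognised in these counts and could make the intervals too narrow. In replicate 1 the intervals of Mir148a and Mir152 were separate, and in replicate 2 they overlapped. Ordered by mean level among the 2202 genes, Mir148a stood at place 99, Mir152 at 106 and Mir148b at 179. In the single libraries the places were 86, 91 and 165 in replicate 1 and 104, 105 and 188 in replicate 2. None of the members had a count on the opposite strand in either library, and their strand-blind counts were identical to the sense counts.

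**Figure D2:**
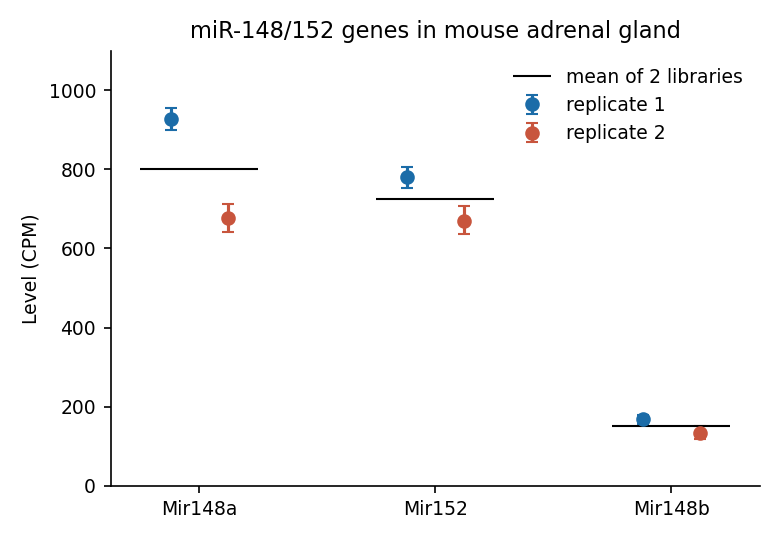
Level in CPM of each member in replicate 1 (blue) and replicate 2 (red), with exact Clopper-Pearson 95% intervals for counting error and a black line at the mean of both libraries. Mir148a and Mir152 lie between 670 and 928 CPM and Mir148b between 134 and 168 CPM.

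Together the members took 8426 counts in replicate 1 and 3077 in replicate 2, which is 1875 and 1480 CPM, with a mean of 1677 ± 279 CPM (SD, n = 2). That is 0.187% and 0.148% of the gene counts. The shares within the family carry intervals of the same exact kind. Mir148a supplied 49.5% of the family in replicate 1 (48.4 to 50.5) and 45.7% in replicate 2 (43.9 to 47.4). Mir152 supplied 41.6% (40.5 to 42.7) and 45.3% (43.5 to 47.1). Mir148b supplied 8.94% (8.34 to 9.57) and 9.07% (8.08 to 10.1). Mir148a held the larger share beyond its interval in replicate 1, its interval overlapped that of Mir152 in replicate 2, and the shares of Mir148b in both libraries differed by less than their intervals.

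Ratios between members within a library do not depend on library size. Mir148a stood at 1.19 times Mir152 in replicate 1 (interval 1.14 to 1.24) and at 1.01 times in replicate 2 (0.936 to 1.09). This difference, a log2 change of -0.24 with an interval of -0.36 to -0.11, exceeded counting error (Fisher's exact test, two-sided, adjusted p = 0.000601 over 3 pairs). It turned to 0.19 after a linear correction for hairpin GC content, which differs between the hairpins of Mir148a and Mir152, so its direction depends on that choice. Mir148a stood at 5.54 and 5.04 times Mir148b, a log2 change of -0.14 with an interval of -0.35 to 0.08 (Fisher's exact test, adjusted p = 0.321). Mir152 stood at 4.65 and 4.99 times Mir148b, a log2 change of 0.10 with an interval of -0.12 to 0.32 (Fisher's exact test, adjusted p = 0.381), which turned to -0.33 with the same correction. The intervals of both changes against Mir148b include no change.

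**Figure D3:**
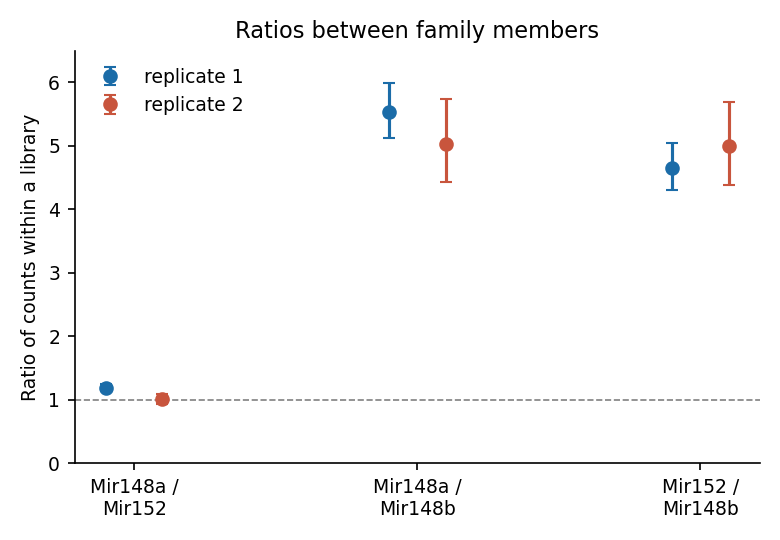
Ratio of counts of the named members within replicate 1 (blue) and replicate 2 (red), with exact 95% intervals for counting error and a dashed line at equal counts. Mir148a and Mir152 lie near 1, at 1.19 and 1.01, and both stand at 4.65 to 5.54 times Mir148b.

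Between the libraries, all 3 members were lower in replicate 2 beyond counting error, by a log2 ratio of less than 1. Ratios are replicate 2 over replicate 1 after TMM scaling, which lowers the ratio of every gene by 0.19 on the log2 scale relative to CPM. From CPM alone, the log2 ratios were -0.46 for Mir148a, -0.32 for Mir148b and -0.22 for Mir152. Mir148a stood at -0.64 on the log2 scale, between limits for counting error of -0.73 and -0.55 (exact binomial test, Benjamini-Hochberg adjusted p = 9.85e-50). Mir148b stood at -0.51, between -0.71 and -0.31 (exact binomial test, adjusted p = 6.51e-07). Mir152 stood at -0.40, between -0.49 and -0.31 (exact binomial test, adjusted p = 6.06e-19). The family's summed counts gave -0.53 with an interval of -0.59 to -0.47.

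Such differences were common between these libraries. Of 333 genes with at least 10 counts in both, 260 (78.1%) differed by the same test, of which 129 (38.7% of those tested) had the higher level in replicate 1 and 131 (39.3%) in replicate 2. With DESeq2 size factors this split was 157 against 97. The median ratio of the members was -0.51, against 0.01 over all genes tested. In absolute size, the members' ratios ranked 96 (Mir152), 127 (Mir148b) and 173 (Mir148a) from the smallest of 333, and the median absolute ratio over all genes was 0.62. With TMM scaling the members thus lay in the lower and middle part of the range of differences. With DESeq2 size factors the ratios were -0.90 for Mir148a, -0.76 for Mir148b and -0.66 for Mir152. Ranks were not recomputed on that scale. With the general difference between the libraries taken as error, in an edgeR exact test whose dispersion came from the same libraries, 6 genes (1.8%) were called and none of the members. Their adjusted p was 0.987 each, and their unadjusted p of 0.562 (Mir148a), 0.651 (Mir148b) and 0.715 (Mir152) left 0 of 3 under 0.05, against 17 of all genes.

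**Figure D4:**
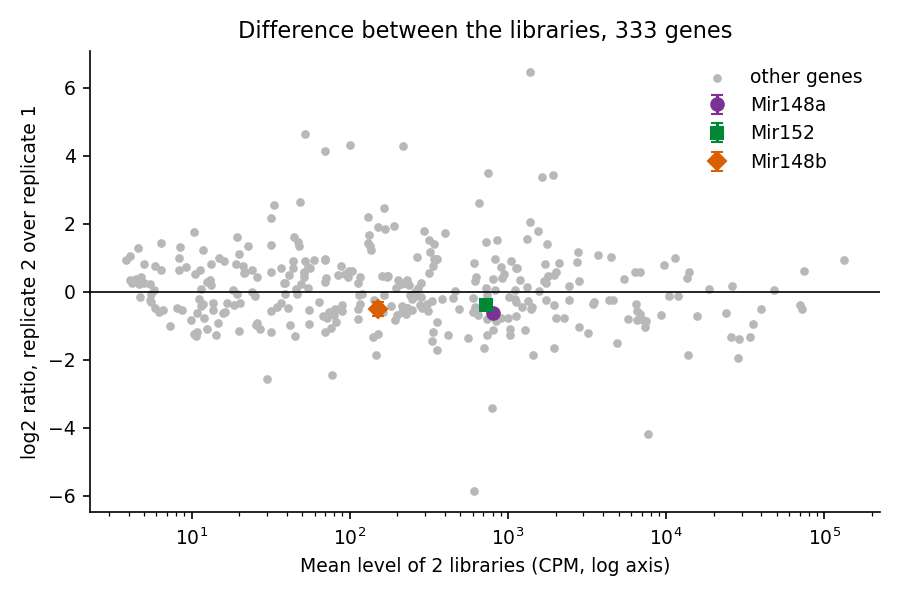
Log2 ratio of replicate 2 over replicate 1 after TMM scaling against mean level in CPM (log axis) for 333 genes, with the members in colour and their 95% counting intervals. The members lie at -0.64, -0.51 and -0.40, within the main body of grey points.

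Markers of other tissues, and of cell types that may belong to the gland itself, differed in level between the libraries. Mir217, Mir216a and Mir216b, microRNAs of pancreas acinar cells, had 0 counts in replicate 1, where up to 3 counts or 0.667 CPM are allowed, and 530, 56 and 91 counts in replicate 2. Mir148a, itself known to be high in acinar cells, stood at 928 and 676 CPM in replicates 1 and 2. What part of its counts came from such cells was not tested. The liver microRNA Mir122 stood at 1383 and 2842 CPM, and the liver list of 4 genes at 1457 and 2955 CPM, with Mir194-1 at 6 and 0 counts. The epithelial list of 5 miR-200 genes stood at 64.7 and 3576 CPM, and the red cell list of 3 genes at 15841 and 1091 CPM. The fat list of 4 genes stood at 54203 and 97438 CPM, nearly all of it Mir378a. The leukocyte list of 5 genes stood at 3219 and 3899 CPM, the endothelial pair at 74842 and 64797 CPM, the smooth muscle and pericyte pair at 46611 and 30221 CPM, and the islet and neuroendocrine list of 4 at 48802 and 54157 CPM. The single genes were compared by the exact binomial test after TMM scaling, unlike the CPM sums above. In replicate 2, 5 of 5 epithelial, 3 of 3 fat and 2 of 3 liver genes tested were higher. In replicate 1, 2 of 3 red cell genes and 1 of 2 endothelial genes were higher. Mir365-1 and Mir194-1 had too few counts for the test. Over all 333 genes tested, 39.3% were higher in replicate 2 and 38.7% in replicate 1. Of the islet and neuroendocrine list 3 were higher in replicate 1 and 1 in replicate 2, and the smooth muscle and pericyte pair split 1 to 1. The part of these tissues and cell types in the members' levels was not tested. In bulk tissue, fewer cells of a type and less RNA per cell cannot be told apart.

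Among the single leukocyte genes, Mir142, Mir155 and Mir223 were lower in replicate 2, with log2 ratios of -0.52, -0.56 and -0.56. Mir146 and Mir150 were higher, at 0.26 and 0.40. All 5 passed the exact binomial test, as did 78.1% of the 333 genes tested. None passed the edgeR exact test, which 1.8% of those genes passed.

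Other microRNAs carry the family's seed string at another place in the mature sequence. In 7 mature microRNAs of the RefSeq table it starts at base 1, among them those of Mir130a, Mir130b, Mir130c, Mir301 and Mir721 of the miR-130/miR-301 family, whose own seed is therefore shifted by 1 base. Sequences of Mir130a and Mir301 are shown with the members' seed string in capitals.
miR-130a-3p: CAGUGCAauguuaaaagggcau
miR-301a-3p: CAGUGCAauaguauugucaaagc
Mir130a, Mir130b and Mir301 were counted in both libraries, whereas Mir130c, Mir721, Mir6341 and Mir6389 had 0 counts. A further 7 hold the string at base 4 or later, among them the products of Mir139, Mir17 and Mir106b.

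The miR-130/miR-301 family differed more between the libraries than the miR-148/miR-152 family did. It stood at 8430 CPM in replicate 1 and 3032 CPM in replicate 2. Relative to the miR-148/miR-152 counts of the same libraries this was a log2 change of -1.13, with a counting interval of -1.21 to -1.06 (Fisher's exact test, two-sided, adjusted p = 6.94e-204 over 3 families). Its tested members were unlike in size, with log2 ratios of -1.52 for Mir130a, -0.21 for Mir130b and -5.88 for Mir301. Mir301b had 54 and 4 counts, too few for the test. In the miR-148/miR-152 family the corresponding ratios lay between -0.64 and -0.40.

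A pair of families that lie in introns of paralogous host genes, as Mir148b and Mir152 do but Mir148a does not, served as further comparisons. The miR-26 family, in introns of the Ctdsp phosphatases, stood at 43901 and 13001 CPM, a log2 change of -1.41 relative to the miR-148/miR-152 counts with a counting interval of -1.48 to -1.35. Nearly all of it was Mir26b, at a log2 ratio of -1.95, while Mir26a-1 and Mir26a-2 were higher in replicate 2, at 0.92 and 0.71. The miR-103/miR-107 family, in introns of the pantothenate kinases, stood at 495 and 2321 CPM, a log2 change of 2.57 with an interval of 2.48 to 2.66. Mir107 made up most of it, at a log2 ratio of 2.05, Mir103-2 stood at 1.60, and Mir103-1 had 7 and 11 counts. For both families the Fisher p-value was smaller than the software can represent. Reads shared between Mir26a-1 and Mir26a-2, or between Mir103-1 and Mir103-2, are outside the counts, so the levels of these copies are uncertain. These tests cover counting error only, and none of the families' members but Mir301 passed the edgeR exact test (adjusted p = 0.00260).

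**Figure D5:**
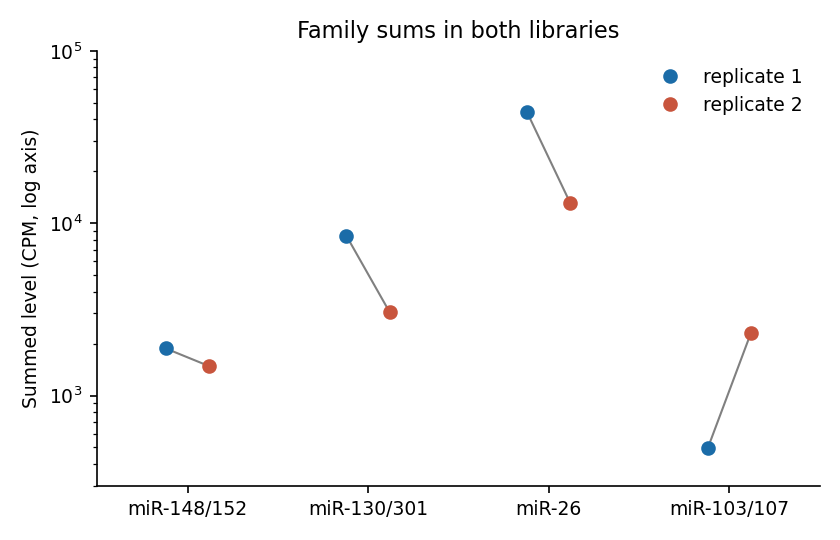
Summed level in CPM (log axis) of the miR-148/miR-152, miR-130/miR-301, miR-26 and miR-103/miR-107 families in replicate 1 (blue) and replicate 2 (red), joined by a line. The miR-148/miR-152 sums, 1875 and 1480 CPM, lie closest together.

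The genes whose levels were most like those of the members were found by the Euclidean distance of log2(CPM + 1) over both libraries, among 332 other genes. This measure rests on 2 libraries and describes level only. For Mir148a they were Mir409, at 1044 and 648 CPM and a distance of 0.180, then Mir497 at 0.227 and Mir532 at 0.239. For Mir148b they were Mir196a-2 of the Hoxc cluster, at 178 and 137 CPM and a distance of 0.0937, then Mir370 at 0.162 and Mir186 at 0.200. Mir196a-2 lies 312 kb from Mir148b on chromosome 15. The nearer Mir615, at 270 kb on the same strand, stood at 1173 and 1071 CPM. Whether location bears on these levels was not tested. For Mir152 they were Mirlet7c-1, at 713 and 762 CPM and a distance of 0.225, then its own family member Mir148a at 0.251 and Mir497 at 0.285. Mirlet7c-1 and Mir196a-2 are numbered copies, and reads shared with other copies are outside their counts.

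Messages with a match to the seed were looked up in the annotation, since none was measured. In the longest annotated 3′ untranslated region of 20980 protein-coding genes, the 7-base reverse complement of the seed, TGCACTG on the transcribed strand only, occurred in 2653 genes (12.6%), and the same string followed by A in 750 (3.57%). Of 4 genes known from earlier work as targets of the family, chosen by hand, Dnmt1 held 1 match, Abca1 held 2, the cell death gene Bcl2l11 held 3, and the cell cycle inhibitor Cdkn1b held none in that window. The match of Dnmt1 and 1 of those of Bcl2l11 are shown because they hold the longer string. Capitals mark it in the messenger strand, written as DNA.
Dnmt1, minus strand, chr9:20907491-20907513: acccagagccccacgTGCACTGA
Bcl2l11, plus strand, chr2:128162394-128162416: gcttcctttacgtttTGCACTGA
A match of this kind is a description of the sequence, and pairing or repression was not measured.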

How the data were processed

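Small RNA libraries had been made from total RNA of the adrenal gland, with a size range under 30, per the labels. Raw counts of reads for each microRNA gene were deposited by the authors as strand-blind, sense and opposite-strand columns, with no normalization visible in the values. Accompanying text names assembly mm10 and annotation M21. The aligner is not given in the sources used here, nor is the counter. Unmapped reads (26.4% and 51.9% of replicates 1 and 2) and reads mapping to several places (29.8% and 21.5%) belong to no gene row and did not enter library sizes. CPM was computed from the sense column over 2202 genes. Genes reaching 10 counts in each library were compared by a two-sided exact binomial test against the ratio of TMM effective library sizes, with Benjamini-Hochberg adjustment over all 333 and a threshold of 0.05. The quasi-likelihood test needs replicates on each side and was not used. Alternatives covered scaling, count minimum, column, an edgeR exact test and hairpin GC content. TMM factors from all genes, and the GC-corrected changes between pairs of members, were added after seeing the data. The exact binomial and Fisher tests were checked on simulated counts, and the edgeR exact test was not. The simulated counts held counting error only, so the check does not cover the wider spread between these libraries. Mapping of CAST/EiJ alleles was not examined. Genes were named by a fixed rule: the members, the comparison families, the marker lists, the 3 nearest genes in level and microRNAs holding the seed string. Neighbouring genes and seed-match genes were chosen after that rule. The rule for the members uses no measured level, but the family and the lists were chosen with earlier results of these data known. The scaling used edgeR 4.0.16 or DESeq2 1.42.0 under R 4.3.3. Tests used SciPy 1.17.1 and pandas 2.3.3, alignments Biopython 1.88 and plots matplotlib 3.10.9, under Python 3.11.15.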

Additional observations from a re-analysis of the deposited data

How the results depend on the processing

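The member and family log2 ratios kept their direction and their side of 0.05 in all 31 values recomputed with other scaling, count minimum, column or GC content, from -0.90 to -0.46 for Mir148a, -0.76 to -0.32 for Mir148b, -0.70 to -0.22 for Mir152 and -0.78 to -0.34 for the family. These values are not independent. The members' counts were the same in every setting, and apart from GC content each setting shifted all ratios alike. TMM factors without a count minimum and from all genes were identical. The family was not recomputed with GC correction. With the edgeR exact test none of the members passed, at -0.64, -0.51 and -0.40 (adjusted p = 0.987 each), and 6 genes were called in place of 260. The calls higher in replicate 1 and replicate 2 were 112 and 149 with library size alone, 157 and 97 with DESeq2 size factors, and 149 and 111 with TMM factors from all genes. With GC correction, the change of Mir148a against Mir152 turned to 0.19 and that of Mir152 against Mir148b to -0.33. The cause was not tested. With all reads as denominator the CPM levels were 238, 44.1 and 210.03 for Mir148a, Mir148b and Mir152 and to 492 for the family, since unassigned reads then count. In the strand-blind column, which holds fewer gene counts, they were 982, 185, 889 and 2057 CPM. Without the highest gene Mir152 stood at 835 CPM. No paired analysis was possible because there is 1 group of 2 libraries. Relative to its level, Mir148b has the widest counting intervals of the members, and 2 libraries limit every SD.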
